A study of Mus musculus with 12 samples.

Results

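The genes described are 6 transcripts of the Fc receptor system of mouse alveolar macrophages, chosen by symbol. They are the IgG receptor genes Fcgr1, Fcgr2b, Fcgr3 and Fcgr4, the signalling chain gene Fcer1g and the kinase gene Syk, 6 of 23413 genes in the deposited count table. All 6 passed the filter on low counts, which kept 12748 genes. RNA-seq was carried out on cells recovered from the lung by lavage, in 12 libraries that form 6 groups of 2. Alveolar macrophages of vitamin D receptor (VDR) knockout mice of 10 weeks stood beside those of wild-type (WT) mice of 10 weeks, and knockout cells of 4 weeks beside WT cells of 4 weeks, all sequenced fresh and with no agent. WT alveolar macrophages were also kept in culture medium for 24 h with 50 nM vitamin D3 or without it. The labels do not give the age of the cultured cells, the cell type in which Vdr was deleted, or whether animals were pooled. The source names number the libraries within each group. In both 10-week groups the 2 libraries came from mice of different sex, by their Xist transcripts below. For the other groups the labels do not state separate mice or cultures, so the spread there may be technical, and each p-value speaks for the spread of library pairs.

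Fc gamma receptors bind the constant part of IgG and let macrophages take up antibody-coated particles. Fcgr1, Fcgr3 and Fcgr4 encode activating receptors that pair with the common gamma chain encoded by Fcer1g. Src family kinases phosphorylate the ITAM motif of that chain, and the phosphorylated motif recruits the tyrosine kinase Syk. Fcgr2b encodes the inhibitory receptor of the family, whose ITIM motif recruits the phosphatase SHIP-1, and the balance of activating and inhibitory receptors sets the threshold for a response to immune complexes. Fcgr1 is a known target of interferon-gamma, and its receptor, CD64, is a general macrophage marker.

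The start regions of the 4 IgG receptor genes are shown because the results below turn on these genes. Each runs from 250 bases before to 50 bases after the annotated start, 5′ to 3′ on the gene's strand, from RefSeq (GRCm38.p6), at chr3:96293920-96294219 (minus strand) for Fcgr1, chr1:171059354-171059653 (minus) for Fcgr3, chr1:171018676-171018975 (plus) for Fcgr4 and chr1:170976022-170976321 (minus) for Fcgr2b. Capitals mark TTCNNNGAA, the letters of an interferon-gamma activated sequence (GAS), and GAGGAA or its reverse complement, the core bound by PU.1.
Fcgr1: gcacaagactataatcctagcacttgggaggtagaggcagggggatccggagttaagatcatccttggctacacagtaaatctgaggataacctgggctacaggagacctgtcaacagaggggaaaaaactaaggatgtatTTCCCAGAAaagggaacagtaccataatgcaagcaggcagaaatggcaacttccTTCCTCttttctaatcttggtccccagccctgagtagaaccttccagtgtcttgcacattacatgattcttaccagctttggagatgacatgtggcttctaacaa
Fcgr3: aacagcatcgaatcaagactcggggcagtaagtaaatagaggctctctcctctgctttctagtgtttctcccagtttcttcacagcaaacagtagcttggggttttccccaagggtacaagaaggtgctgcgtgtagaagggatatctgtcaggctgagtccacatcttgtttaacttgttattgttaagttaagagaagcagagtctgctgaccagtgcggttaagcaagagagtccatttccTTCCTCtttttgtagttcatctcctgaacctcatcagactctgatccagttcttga
Fcgr4: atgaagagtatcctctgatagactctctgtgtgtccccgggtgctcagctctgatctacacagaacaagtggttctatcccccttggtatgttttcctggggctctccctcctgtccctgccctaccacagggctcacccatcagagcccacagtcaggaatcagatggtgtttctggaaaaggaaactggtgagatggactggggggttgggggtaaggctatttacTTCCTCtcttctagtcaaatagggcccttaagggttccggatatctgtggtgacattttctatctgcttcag
Fcgr2b: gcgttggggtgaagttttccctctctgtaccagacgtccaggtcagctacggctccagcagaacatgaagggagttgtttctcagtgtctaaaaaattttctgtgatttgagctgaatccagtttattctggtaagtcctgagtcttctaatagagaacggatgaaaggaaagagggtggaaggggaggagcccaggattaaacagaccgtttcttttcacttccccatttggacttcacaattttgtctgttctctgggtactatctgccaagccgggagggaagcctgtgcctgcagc
TTCNNNGAA reads the same on both strands in its fixed letters, and it was found in the Fcgr1 window, 109 bases before the start, and in none of the other 3. It was present in 8.30% of 32851 promoter windows. The PU.1 letters, searched on both strands, began 55 bases before the start in Fcgr1, 6 bases before it in Fcgr3 and 22 bases before it in Fcgr4, and did not occur in the Fcgr2b window; 28.3% of all windows held them. Fcgr1 and Fcgr3 shared the 14-base run ttccttcctctttt around that match. The half-site letters AGGTCA occurred in the Fcgr2b window (16.3% of all windows) and AGTTCA in the Fcgr3 window (14.0% of all windows). These matches describe letters and do not show binding.

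Fcgr2b and Fcgr3 both lie on chromosome 1 and are alike in part: their coding sequences share an identical run of 129 bases. It is shown because reads that lie within it cannot be assigned to either gene.
Fcgr2b and Fcgr3: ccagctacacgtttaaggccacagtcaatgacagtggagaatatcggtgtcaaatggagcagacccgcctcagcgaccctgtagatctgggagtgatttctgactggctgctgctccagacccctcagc
Of the 50-base words of the annotated transcripts (GENCODE M21, GRCm38), 9.58% of those of Fcgr3 and 2.92% of those of Fcgr2b occurred in the other gene. Fcgr1, Fcgr4, Fcer1g and Syk shared none with another gene on the same strand. No source used here states how the counting treated such reads, and the Fcgr2b and Fcgr3 values are less certain than the others. The antisense gene Gm38204 overlaps Fcgr2b, and no source used here states the strand setting.

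Library totals ranged from 10409572 to 23233674 counts, and levels are given as CPM, the counts of a gene scaled to library size. For 2 of the 10-week libraries the genotype and the source name disagreed with the sample code: knockout replicate 1 carried a WT code and WT replicate 2 a knockout code. The genotype label was used, and results were repeated with these libraries exchanged and left out. Vdr transcripts were at 31.2 to 84.2 CPM in the 4 knockout libraries and at 56.5 to 126.9 CPM in the 4 fresh WT libraries, so the transcript level does not separate all of them; which exons were deleted is not stated in the labels. Both replicate 2 libraries of 10 weeks had Xist, transcribed from the inactive X chromosome of female cells, at 787 CPM (knockout) and 800 CPM (WT), and the other libraries were below 1 CPM, so each 10-week group mixed both sexes. Summed over 10 alveolar macrophage markers, fresh libraries held 22711 to 42923 CPM and cultured libraries 12075 to 13922 CPM. Chi3l3 alone held 14992.5 to 34323 CPM in fresh and 5044.4 to 5744.2 CPM in cultured libraries. B and plasma cell markers, whose cells carry Fcgr2b, summed to at most 6.36 CPM in any library, and Pax5 and Ebf1 were at 0 in both cultured groups. Mast cell and basophil markers, whose cells use Fcer1g, summed to at most 4.67 CPM, with Ms4a2 and Fcer1a at 0 in both cultured groups. NK cell markers summed to at most 6.25 CPM.

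**Figure D1:**
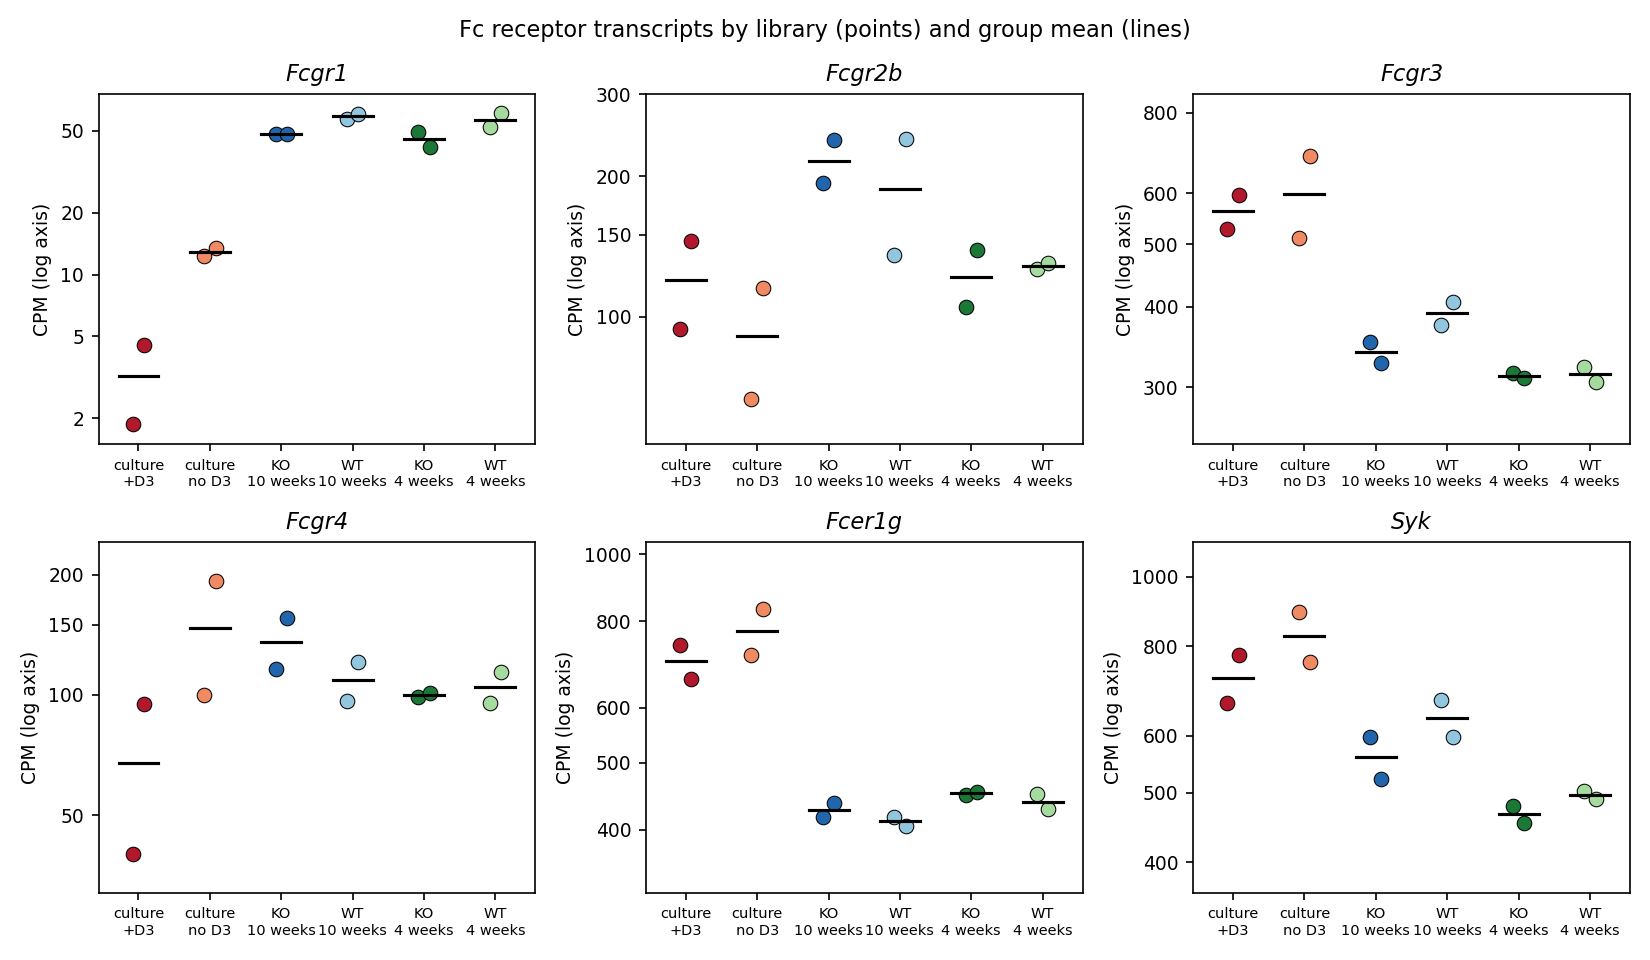
Level of each gene in CPM (log axis) in each library (points) with the group mean (line), for 6 groups of 2 libraries. Fcgr1 was at 1.87 to 4.57 CPM with vitamin D3 and at 41.5 to 60.8 CPM in all fresh libraries.

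Scaled by transcript length, the receptors kept one order in the group means of every fresh group. In fresh WT cells of 4 weeks, Fcgr3 averaged 181 ± 6.70 CPM per kb, Fcgr4 83.4 ± 10.6, Fcgr2b 22.2 ± 0.524 and Fcgr1 21.9 ± 2.32 (SD, n = 2), and the neighbours Fcgr2b and Fcgr1 did not differ beyond their spread. That closeness depends on the length used: scaled by its longest annotated transcript, Fcgr2b averaged 36.3 ± 0.856 CPM per kb and Fcgr1 21.9 ± 2.32 (SD, n = 2), a difference beyond the spread, with the order unchanged. Fcgr3, the low-affinity activating receptor, made up 50.6% to 63.8% of the length-scaled transcripts of the 4 receptors in the fresh libraries. In culture its share was 86.2% and 77.0% with vitamin D3, and 75.4% and 68.8% without it. Fcgr1, the high-affinity receptor, made up 0.204% and 0.395% with vitamin D3, 1.21% and 0.910% without it, and 5.01% to 7.50% in the fresh libraries. Fcer1g was more abundant per kb than any receptor, at 801 ± 64.5 CPM per kb with vitamin D3, 885 ± 95.9 without it, and between 471 and 517 in the means of the fresh groups.

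**Figure D2:**
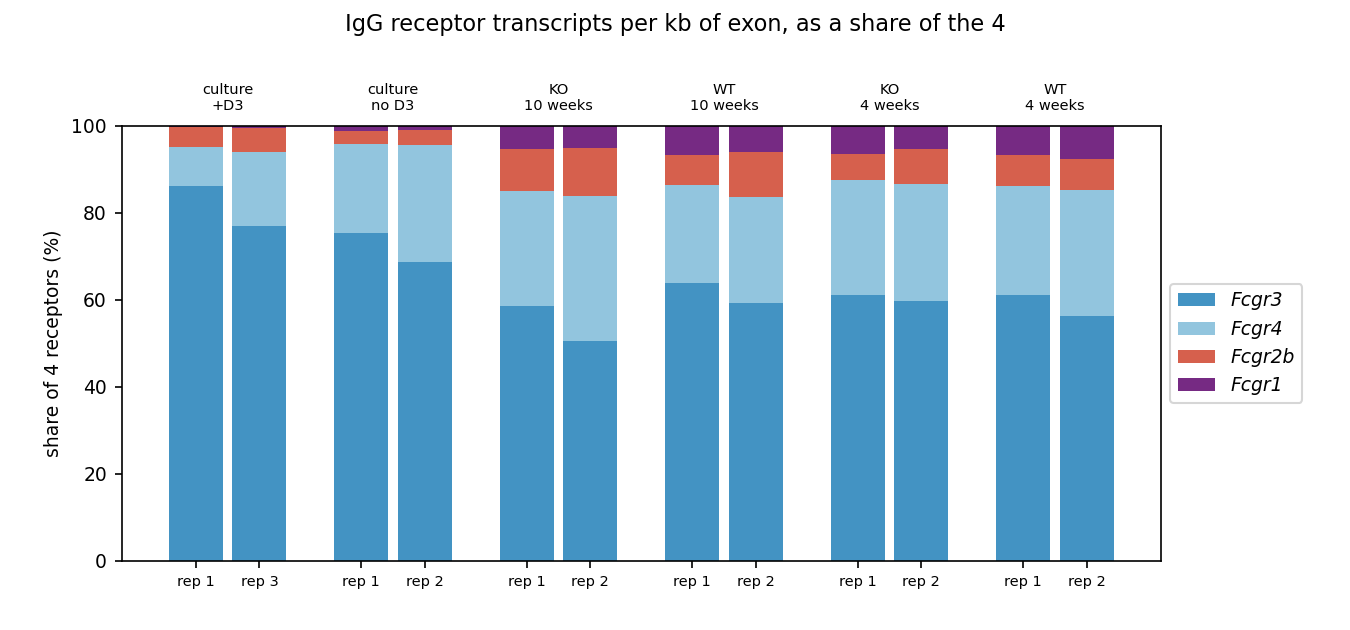
Share of each IgG receptor gene in the length-scaled transcripts of the 4 receptors, in percent, by library. Fcgr3 held the largest share in every library, from 50.6% in a knockout library of 10 weeks to 86.2% in a culture with vitamin D3.

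With vitamin D3 in culture, 1 of the 6 transcripts was lower by the test, that of the high-affinity receptor Fcgr1. Fcgr1 was at 1.87 and 4.57 CPM with vitamin D3 (38 and 65 counts) and at 12.3 and 13.5 CPM without it. Both treated libraries lay below both untreated ones. The log2 fold change was -2.06 ± 0.277 (SE), a 4.17-fold lower level, with an adjusted p of 0.000632 in edgeR's quasi-likelihood test with Benjamini-Hochberg adjustment. Across all genes tested, 10.6% passed in this comparison and 5.63% were lower. Leaving out replicate 3 with vitamin D3 gave -2.77, and leaving out replicate 1 gave -1.49. The library names fall into 2 number series, and within them the differences were -2.64 and -1.54 on the log2 scale. Markers of monocytes and interstitial macrophages, cells that also carry IgG receptors, summed to 92.7 to 107.8 CPM with vitamin D3 and 108.0 to 170.8 CPM without it. Of 8 tested, 3 had a positive change and 1 was lower by the test (median -0.55). Cd14 among them was at 27.2 and 41.3 CPM with vitamin D3 and at 22.9 and 28.3 CPM without it. Alveolar macrophage markers summed to 12075 to 13922 CPM with vitamin D3 and 12340 to 12351 CPM without it, with 3 of 10 higher and 3 lower by the test. Neutrophil markers summed to 60.8 to 65.7 CPM with vitamin D3 and 76.3 to 82.6 CPM without it. Of 4 tested, 1 had a positive change and 1 was lower by the test (median -1.21). Csf3r among them was at 7.38 and 8.50 CPM with vitamin D3 and at 26.9 and 19.3 CPM without it. T cell markers summed to 124 to 138 CPM with vitamin D3 and 220 to 227 CPM without it. Nearly all of that was Cd2, at 120.2 and 134.9 CPM with vitamin D3 and 217.3 and 224.6 CPM without it. Of 7 T cell markers, 3 had a positive change and 1 was lower by the test (median -0.25). Lung epithelial markers summed to 49.3 to 57.3 CPM with vitamin D3 and 31.0 to 32.3 CPM without it. Most of that was Cdh1, at 50.4 and 40.3 CPM with vitamin D3 and 21.6 and 18.0 CPM without it. Of 8 epithelial markers, 2 had a positive change and 1 was higher by the test (median -0.63). The NK cell marker Klrb1c was at 4.48 and 1.19 CPM with vitamin D3 and at 0.164 and 0.081 CPM without it (91 and 17 against 3 and 1 counts), and passed. The part of these cells in the result was not tested.

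Fcgr4, an activating receptor of intermediate affinity, was at 39.9 and 95.1 CPM with vitamin D3 and at 100.2 and 193.2 CPM without it. The groups did not overlap, as for 48.9% of all genes, but the replicates of each group lay far apart. The log2 fold change of -1.12 ± 0.359 (95% interval -1.91 to -0.34) missed the threshold, with an edgeR adjusted p of 0.0718. Fcgr4 passed when low-count genes were kept, and when the number series of the library names was added to the fit. It also passed when the cultures were paired by that series, so the call depends on the setting. Leaving out vitamin D3 replicate 3 gave -1.87 (edgeR adjusted p = 0.00562), and leaving out untreated replicate 1 gave -1.52 (edgeR adjusted p = 0.0292). Leaving out vitamin D3 replicate 1 gave -0.62 (edgeR adjusted p = 0.411), and leaving out untreated replicate 2 gave -0.58 (edgeR adjusted p = 0.388). Within the number series of the library names the differences were -1.32 and -1.02.

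The inhibitory receptor and the shared signalling components did not pass. Fcgr2b was at 94.2 and 145.4 CPM with vitamin D3 and at 66.8 and 115.1 CPM without it, with overlapping groups and a log2 fold change of 0.40 (95% interval -0.26 to 1.06). That change was 0.84 without untreated replicate 2 and 0.057 without untreated replicate 1, and it passed (edgeR adjusted p = 0.0276) once all genes, low counts included, were fitted. Fcgr3 was at 529 and 597 CPM with vitamin D3 and at 512 and 686 CPM without it, a change of -0.089 (interval -0.37 to 0.20). Fcer1g was at 740 and 660 CPM with vitamin D3 and at 714 and 833 CPM without it, a change of -0.14 (interval -0.37 to 0.079). For Syk the levels were 666 and 778 CPM with vitamin D3 and 894 and 759 CPM without it, a change of -0.20 (interval -0.46 to 0.067). The groups of these 4 genes overlapped, and their intervals still allow changes in either direction. The length-scaled ratio of activating Fcgr4 to inhibitory Fcgr2b was 1.95 and 3.02 with vitamin D3, 6.92 and 7.74 without it, and 2.32 to 4.34 in the fresh libraries. The ratio of Fcgr3 to Fcgr2b was 18.7 and 13.7 with vitamin D3, 25.6 and 19.9 without it, and 4.57 to 10.0 in the fresh libraries. That of Fcgr1 to Fcgr2b was 0.0444 and 0.0702 with vitamin D3, 0.411 and 0.263 without it, and 0.452 to 1.06 in the fresh libraries. All 3 ratios were lower in both cultures with vitamin D3 than in both without it, and none of them was tested. They share Fcgr2b, whose own change did not pass, so they are not 3 separate results. Among single genes, 48.9% had no overlap between these groups.

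**Figure D3:**
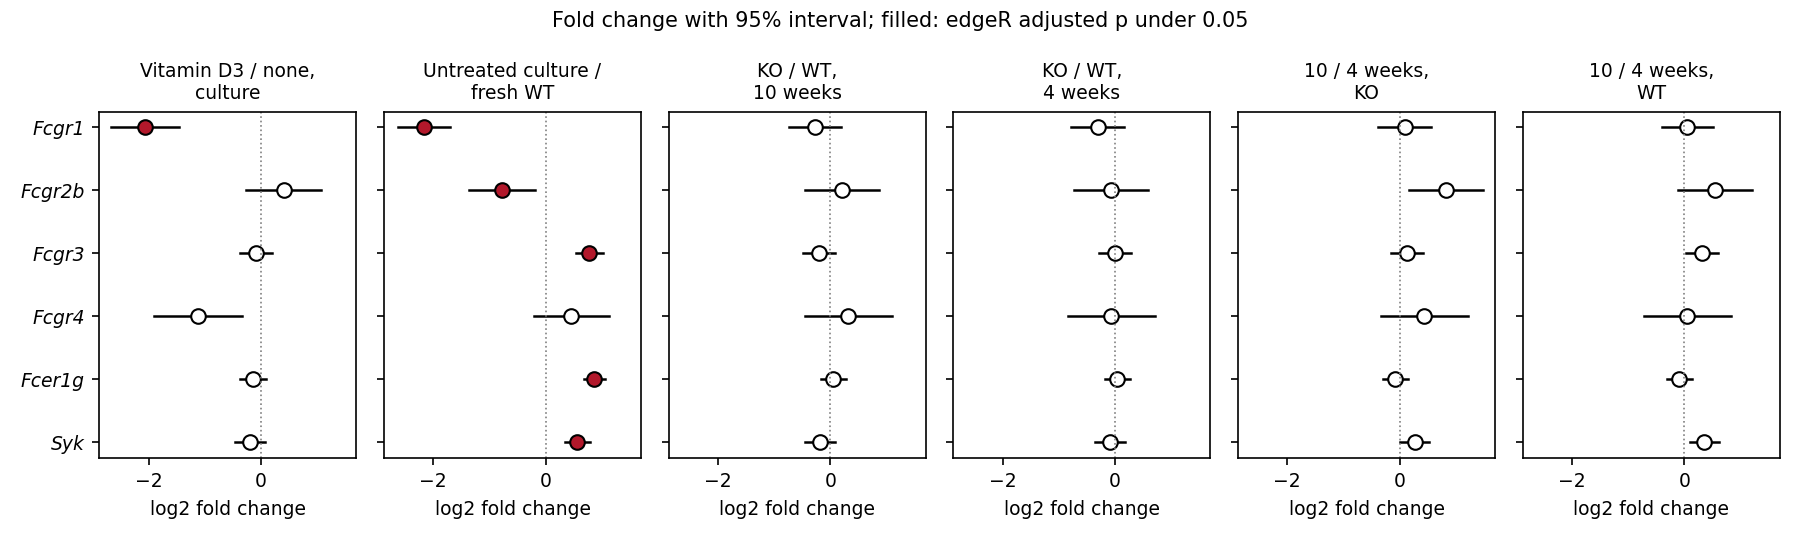
Log2 fold change of each gene with its 95% interval in 6 of the 8 comparisons, from the edgeR fit to all libraries. Filled points, past the adjusted threshold, are Fcgr1 with vitamin D3 (-2.06) and 5 genes in untreated culture.

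Culture without vitamin D3 was accompanied by changes of these transcripts in both directions. Against fresh WT cells, 3 of the 6 transcripts were higher (Fcer1g, Fcgr3 and Syk), 2 were lower (Fcgr1 and Fcgr2b), and Fcgr4 did not pass. In this comparison 45.8% of all genes passed, 23.5% higher and 22.3% lower, so a large count is common here. The comparison takes both ages of fresh WT cells together, and culture, handling and any age difference cannot be told apart. In bulk libraries such as these, fewer cells of a type and less RNA per cell cannot be told apart either. The alveolar macrophage marker sum was 12340 to 12351 CPM in untreated culture and 22711 to 28920 CPM in fresh WT cells. Chi3l3 alone was at 5386.6 and 5744.2 CPM in untreated culture and 14992.5 to 21782.2 CPM in fresh WT cells. Of 10 alveolar macrophage markers, 2 were higher and 5 lower by the test (median -0.44). The lung epithelial marker sum was 31.0 to 32.3 CPM in untreated culture and 117 to 309 CPM in fresh WT cells. Dendritic cell markers summed to 36.5 to 40.7 CPM in untreated culture and 46.0 to 112 CPM in fresh WT cells, with 6 of 8 lower and 1 higher by the test (median log2 change -2.42). The part of these cells in the result was not tested.

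Fcgr1 was at 12.3 and 13.5 CPM in untreated culture, against 57.5 and 60.2 CPM in fresh WT cells of 10 weeks and 52.3 and 60.8 CPM in those of 4 weeks. Its log2 fold change was -2.17 ± 0.212, 4.49-fold lower, with an edgeR adjusted p of 7.56e-06. No cultured library reached the fresh range. Fcer1g, the chain the activating receptors need at the surface, was at 714 and 833 CPM in untreated culture, against 418 and 406 CPM at 10 weeks and 451 and 428 CPM at 4 weeks in fresh WT cells. It rose by 0.86 ± 0.086 on the log2 scale (edgeR adjusted p = 8.82e-06).

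Fcgr3 was at 512 and 686 CPM in untreated culture, against 374 and 407 CPM at 10 weeks and 322 and 306 CPM at 4 weeks, a rise of 0.77 ± 0.110 (edgeR adjusted p = 0.000148). Syk was at 894 and 759 CPM in untreated culture, against 673 and 598 CPM at 10 weeks and 502 and 490 CPM at 4 weeks, a rise of 0.56 ± 0.102 (edgeR adjusted p = 0.000879). For both genes every untreated culture lay above every fresh WT library, with the 10-week libraries nearer to culture than the 4-week ones; 56.0% of all genes were separated between culture and fresh WT cells.

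Fcgr2b was at 66.8 and 115.1 CPM in untreated culture, against 135.4 and 240.6 CPM at 10 weeks and 126.5 and 130.7 CPM at 4 weeks in fresh WT cells. The untreated cultures were the lowest of these, by a narrow margin for untreated replicate 2. The 240.6 CPM value came from the 10-week WT library with high Xist. The log2 fold change was -0.78 ± 0.271 (edgeR adjusted p = 0.0347). That call rests on single libraries: the adjusted p was 0.293 without untreated replicate 1 (-0.43), 0.104 without WT replicate 2 of 10 weeks (-0.54), 0.0523 without WT replicate 1 of 4 weeks and 0.0648 without WT replicate 2 of 4 weeks, all in edgeR, and 0.0610 in DESeq2. Fcgr4 was at 100.2 and 193.2 CPM in untreated culture and at 95.3 to 120.9 CPM in the fresh WT libraries, a change of 0.46 ± 0.301 (95% interval -0.20 to 1.12).

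None of the 6 transcripts passed in knockout against WT cells in edgeR. At 10 weeks 0 of 6 passed, against 0.110% of all genes; at 4 weeks 0 of 6, against 0.667%; over both ages 0 of 6, against 0.996%. In edgeR, 0 of 6 also had an unadjusted p under 0.05 in each of these comparisons, against 9.76%, 12% and 13.1% of all genes, and DESeq2 called 0 of 6 in each. The difference between the ages in the effect of genotype passed for 0 of 6 in edgeR and DESeq2, against 0.188% of all genes, and 0 of 6 had an edgeR unadjusted p under 0.05, against 8.65%.

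Over both ages, Fcgr1 had the smallest p of the 6. It was at 48.5 and 48.3 CPM in knockout and at 57.5 and 60.2 CPM in WT cells of 10 weeks, and at 49.6 and 41.5 CPM in knockout and at 52.3 and 60.8 CPM in WT cells of 4 weeks. All 4 knockout libraries lay below the WT libraries of their age, as 40.6% of all genes did at 10 weeks and 48.6% at 4 weeks in either direction; the 4 knockout libraries also lay below all 4 WT libraries, and 4.56% of all genes were separated in that way. The log2 fold change over both ages was -0.30 ± 0.150 (95% interval -0.62 to 0.032), with an edgeR adjusted p of 0.440. Dendritic cell markers summed to 25.1 to 45.4 CPM in the knockout libraries and 46.0 to 112 CPM in the fresh WT libraries, with 2 of 8 lower by the test over both ages (median -1.19). Monocyte and interstitial macrophage markers summed to 63.4 to 143.7 CPM in the knockout and 78.4 to 149.7 CPM in the fresh WT libraries, with 1 of 8 lower (median -0.72). The part of these cells in the Fcgr1 difference was not tested. With the 2 conflicting labels exchanged, the value at 10 weeks was 0.036 instead of -0.28. The exchange puts both 10-week libraries with high Xist in the knockout group and both with low Xist in the WT group. Each group then also comes from a single number series, so genotype, sex and series cannot be told apart in that value.

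Fcgr2b was at 193.2 and 239.0 CPM in knockout and at 135.4 and 240.6 CPM in WT cells of 10 weeks, and at 104.9 and 139.0 CPM in knockout and at 126.5 and 130.7 CPM in WT cells of 4 weeks, with overlapping groups at both ages. The log2 fold change over both ages was 0.062 (95% interval -0.40 to 0.53). Fcgr3 was at 353 and 328 CPM in knockout and at 374 and 407 CPM in WT cells of 10 weeks, where the groups did not overlap, and the change over both ages was -0.10 (interval -0.30 to 0.10). At 4 weeks Fcgr3 was at 316 and 310 CPM in knockout and at 322 and 306 CPM in WT cells, with overlap.

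Fcgr4 was at 115.8 and 156.0 CPM in knockout and at 96.6 and 120.9 CPM in WT cells of 10 weeks, and at 98.6 and 101.4 CPM in knockout and at 95.3 and 114.1 CPM in WT cells of 4 weeks. The groups overlapped at both ages, and the log2 fold change over both was 0.13 (95% interval -0.42 to 0.67). Fcer1g was at 417 and 438 CPM in knockout and at 418 and 406 CPM in WT cells of 10 weeks, and at 449.9 and 453 CPM in knockout and at 451 and 428 CPM in WT cells of 4 weeks. It too overlapped at both ages, with a change over both of 0.046 (interval -0.11 to 0.20), and the Syk change was -0.13 (interval -0.32 to 0.051). Of the 6 intervals over both ages, those of Fcer1g and Syk were the narrowest and those of Fcgr4 and Fcgr2b the widest.

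With age, 0 of 6 passed in WT cells (2.11% of all genes) and 0 of 6 in knockout cells (9.73% of all genes), with 2 of 6 in each at an edgeR unadjusted p under 0.05, against 18.6% of all genes in WT and 25.6% in knockout cells. DESeq2 also called 0 of 6 in each. In WT cells these were Fcgr3 (0.31 ± 0.131) and Syk (0.36 ± 0.120). In knockout cells they were Fcgr2b (0.83 ± 0.302) and Syk (0.26 ± 0.120). The highest Fcgr2b levels were in the high-Xist libraries of 10 weeks, at 240.6 CPM (WT) and 239.0 CPM (knockout). The low-Xist libraries of 10 weeks were at 135.4 CPM (WT) and 193.2 CPM (knockout). Those of 4 weeks were at 126.5 and 130.7 CPM (WT) and at 104.9 and 139.0 CPM (knockout). Syk was at 598 and 522 CPM in knockout cells of 10 weeks and at 480 and 453 CPM in those of 4 weeks, and at 673 and 598 CPM in WT cells of 10 weeks and at 502 and 490 CPM in those of 4 weeks. The 10-week libraries were the higher ones in both genotypes, without overlap, as for 54.6% of all genes in WT and 57.3% in knockout cells. All 4-week libraries had Xist below 1 CPM and belonged to the same number series. Each 10-week group held 1 library with high Xist from that series and 1 with low Xist from the other. Age was thus not balanced for sex or number series, and these cannot be fully told apart.

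Among the genes with the most similar profile over the 12 libraries by Pearson correlation of log2 CPM, Fcer1g had Abcg2 (r = 0.989), Tyrobp (r = 0.988) and Arl8b (r = 0.987). Tyrobp encodes DAP12, another ITAM adaptor that signals through Syk. Fcgr1 was most like Dna2 (r = 0.991), Aim1 (0.990) and Adrbk2 (0.988). Fcgr3 was most like Ebf3 (r = 0.993), Stx7 (0.971) and Alcam (0.970), and Syk most like Galnt7 (r = 0.976), Tmem50b (0.972) and Eif4g2 (0.969). Fcgr2b had Dusp8 (r = 0.938), Arid5a (0.902) and Rabggta (0.867), and Fcgr4 had Stk25 (r = 0.923), Cant1 (0.915) and Mapk3 (0.913). These values describe the libraries, which share the split into fresh and cultured cells.

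Other Fc receptors were mostly not measurable: 6 of 13 listed genes were tested. Fcgrt, the neonatal Fc receptor that recycles IgG, fell with vitamin D3 to 51.0 and 57.3 CPM, against 109.6 and 106.9 CPM without it, a log2 change of -1.0 ± 0.105 (edgeR adjusted p = 0.000124). In untreated culture it was lower than in fresh WT cells by a log2 change of -1.91 ± 0.097 (edgeR adjusted p = 5.56e-08). It was 1 of 6 lower with vitamin D3, against 5.63% of all genes, and the list's median was 0.22 and that of all genes 0. Pigr, an epithelial transporter of IgA, had 0 counts in untreated culture and 85 counts over the fresh WT libraries, at least 12.8-fold lower against a floor of 3 counts over the group. The list thus had 2 of 6 lower in culture, against 22.3% of all genes. Its median of -1.10 (all genes -0.022) lies between Fcrls (-1.84 ± 1.27) and Fcrla (-0.37 ± 0.96), both low in counts and neither past the threshold.

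Of 11 tested receptors and adaptors that share the ITAM route, 5 were higher and 1 lower in untreated culture (median 0.50), where 23.5% of all genes were higher and 22.3% lower, led by Clec4d (4.25 ± 0.159), Trem2 (3.51 ± 0.184), Clec4e (2.78 ± 0.196) and Tyrobp (1.43 ± 0.108). With vitamin D3, 0 were higher and 2 lower (median -0.33), where 10.6% of all genes passed and 5.63% were lower. Clec4e, which encodes the receptor Mincle that pairs with Fcer1g, was at 44.8 and 64.8 CPM with vitamin D3 and at 158.0 and 154.9 CPM without it (-1.52 ± 0.235, edgeR adjusted p = 0.00164). Lilra6 was lower by the test (-1.17 ± 0.269), but not without vitamin D3 replicate 1 (-0.85) or untreated replicate 1 (-1.10).

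Of the Src family kinases upstream of Syk, Lyn was lower in untreated culture than in fresh WT cells (-0.42 ± 0.083, edgeR adjusted p = 0.00153), at 299.2 and 271.3 CPM in untreated culture, against 368.8 and 389.7 CPM at 10 weeks and 375.0 and 389.2 CPM at 4 weeks. Each untreated culture lay below each fresh WT library.

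Downstream of Syk, 5 of 32 genes were higher and 7 lower with vitamin D3 (median -0.13), 12 of 32 against 10.6% of all genes. The list was chosen with earlier results of these data known, so this share is a description only. The adaptor gene Lat was at 23.7 and 23.0 CPM with vitamin D3 and at 2.41 and 3.08 CPM without it (3.10 ± 0.258, edgeR adjusted p = 3.43e-05). Rac2, a GTPase of the actin and oxidase machinery, was at 718 and 519 CPM with vitamin D3 and at 203 and 187 CPM without it (1.66 ± 0.141, edgeR adjusted p = 3.69e-05). Both treated libraries were well above both untreated ones for each gene. Lat2 was higher (2.30 ± 0.451) and Ptk2b lower (-0.58 ± 0.121); the Lat2 call was lost without untreated replicate 1, and the Ptk2b call without vitamin D3 replicate 1 or untreated replicate 1. In untreated culture 13 were higher and 4 lower (median 0.17), against 23.5% higher and 22.3% lower among all genes, led by Pik3cb (1.59 ± 0.106), Grb2 (0.98 ± 0.077), Pik3r5 (0.99 ± 0.088) and Malt1 (1.79 ± 0.174).

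Of 14 inhibitors of Fc receptor signalling, 0 were higher and 4 lower with vitamin D3 (median -0.16), against 5.63% lower among all genes. Inpp5d, which encodes the phosphatase SHIP-1 that acts behind Fcgr2b, was at 138.1 and 150.8 CPM with vitamin D3 and at 245.3 and 206.9 CPM without it (-0.65 ± 0.111, edgeR adjusted p = 0.00322). Pag1 was also lower (-0.70 ± 0.125), as were Sirpa (-0.42 ± 0.101) and Ptpn22 (-2.82 ± 0.621), the last at under 2 CPM in both groups. The Sirpa call was lost without vitamin D3 replicate 1 or untreated replicate 1, and the Ptpn22 call without vitamin D3 replicate 3 or untreated replicate 2. In untreated culture 0 were higher and 5 lower (median -0.23), against 23.5% higher and 22.3% lower among all genes, led by Dok3 (-1.14 ± 0.103), Ptpn12 (-0.90 ± 0.132), Csk (-0.72 ± 0.111) and Pag1 (-0.47 ± 0.110), the last not without untreated replicate 2.

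The interferon-gamma pathway, which regulates Fcgr1, had 1 of 15 genes lower with vitamin D3 (median -0.12), a share near the 5.63% of all genes. That gene was the kinase gene Jak2 (-0.51 ± 0.126, edgeR adjusted p = 0.0241), whose call was lost without vitamin D3 replicate 1 or untreated replicate 1. Ifngr1, the receptor chain that binds the cytokine, was at 98.1 and 94.8 CPM with vitamin D3 and at 96.0 and 96.2 CPM without it. In untreated culture 4 were higher and 9 lower (median -0.39), against 23.5% higher and 22.3% lower among all genes. Ifngr1 (-1.0 ± 0.110), Gbp5 (-2.45 ± 0.304) and Socs3 (-2.55 ± 0.358) were lower, and Ifngr2 (0.81 ± 0.105) was higher.

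**Figure D4:**
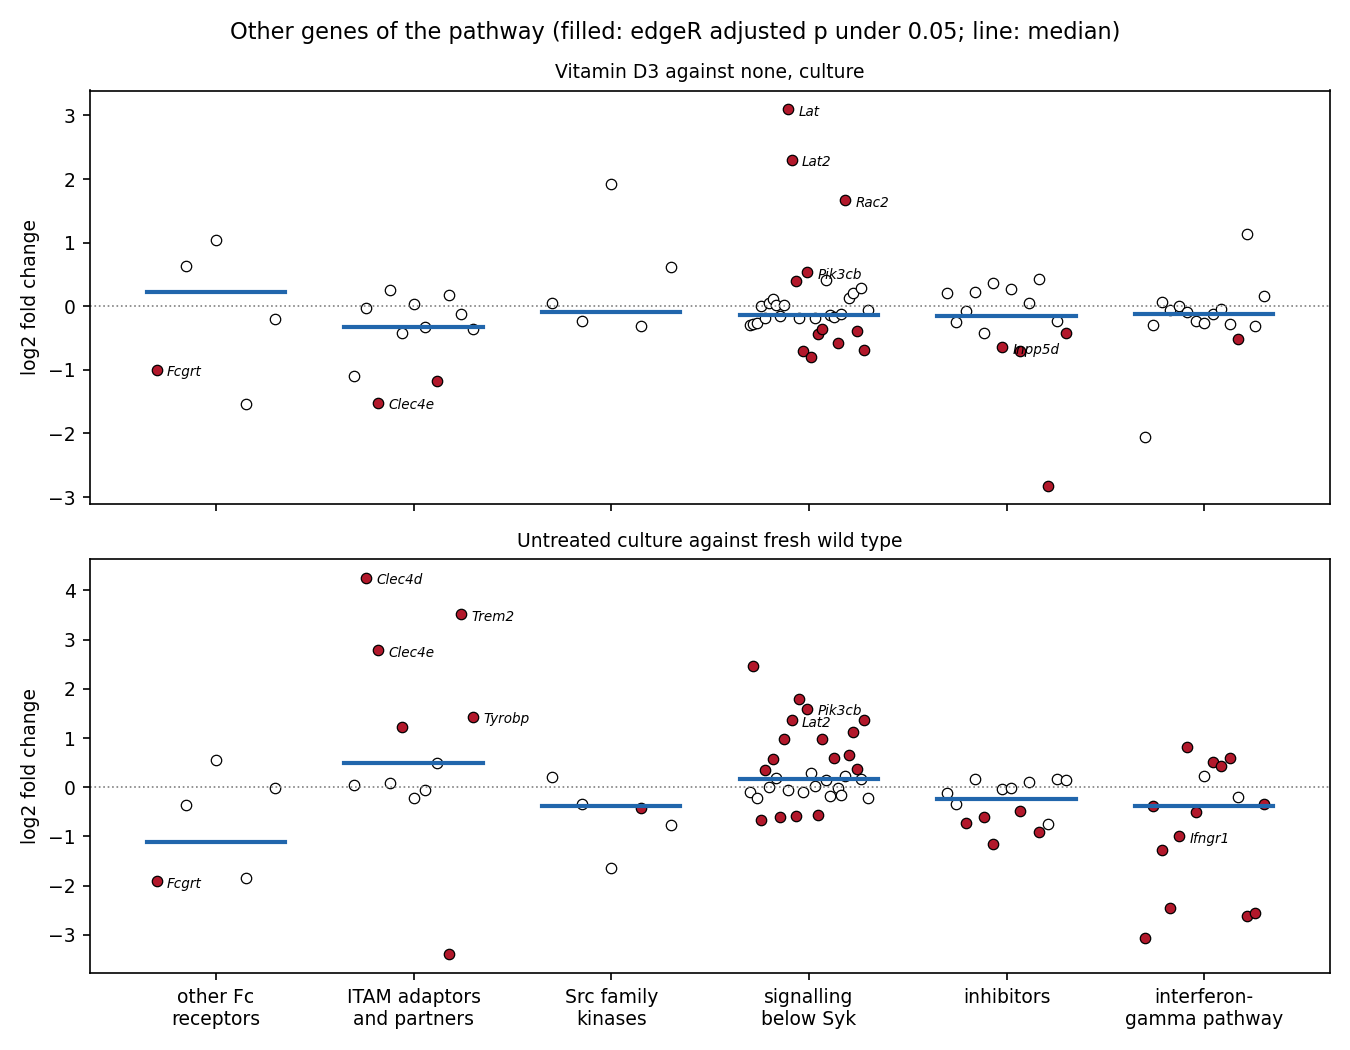
Log2 fold change of genes of 6 lists of the Fc receptor pathway, with vitamin D3 against none (top) and in untreated culture against fresh WT cells (bottom). Filled points passed an edgeR adjusted p of 0.05, lines are list medians, and Pigr, at 0 counts in untreated culture, is not drawn; Lat (3.10) and Clec4d (4.25) stand highest.

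By genotype, 1 gene of all 6 lists passed, where the lists held 6, 11, 6, 32, 14 and 15 tested genes. Such calls were few among all genes too: 0.667% in the 4-week comparison, 0.110% in the 10-week comparison and 0.996% with the ages combined. Clec4d, which encodes a C-type lectin that pairs with Fcer1g, was at 31.8 and 35.6 CPM in knockout and at 12.3 and 9.27 CPM in WT cells of 4 weeks, a log2 change of 1.65 ± 0.201 (edgeR adjusted p = 0.00287). Both knockout libraries of 4 weeks were above every other fresh library. In 10-week cells it stood at 11.8 and 17.0 CPM in knockout libraries and at 16.4 and 13.6 CPM in WT libraries. Over both ages the change was 0.78 ± 0.143 (edgeR adjusted p = 0.0305), a call lost when any of 7 of the 8 fresh libraries was left out.

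With age, 8 calls were made in these 6 lists in knockout cells, where 9.73% of all genes passed. In WT cells 2 were made, where 2.11% of all genes passed. More calls in knockout than in WT cells were thus common to all genes. The difference between genotypes was tested per gene only, and Clec4d passed. In knockout cells of 10 against 4 weeks, Clec4d (-1.25 ± 0.199) and Trem2 (-0.78 ± 0.224) were lower, 2 of 11 ITAM genes. The Src family kinases Src (2.18 ± 0.564) and Fyn (0.54 ± 0.149), 2 of 6, were higher, as was Pik3r1 (0.40 ± 0.108), 1 of 32 genes downstream of Syk. Of the interferon-gamma pathway, Socs3 (1.68 ± 0.341), Gbp5 (1.40 ± 0.295) and Ifngr1 (0.52 ± 0.121), 3 of 15, were higher in knockout cells, and Cxcl9 (2.18 ± 0.449) and Ifngr1 (0.54 ± 0.122), 2 of 15, in WT cells. Apart from that of Clec4d, each of these calls was lost when knockout replicate 2 of 4 weeks (in knockout cells) or WT replicate 1 of 4 weeks (in WT cells) was left out. None of the inhibitors or other Fc receptors passed with age in edgeR. The imbalance of sex and number series between the ages applies to these calls too.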

How the data were processed

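RNA from mouse alveolar macrophages was extracted with the Qiagen RNeasy Micro Kit and made into libraries with the KAPA mRNA HyperPrep Kit, per the labels' protocols. TopHat2, edgeR and the build mm9 are named in the submitters' processing notes; no label or note used here names the counter, annotation or strand setting. The deposited count table holds whole-number counts per gene that the authors did not normalize. A deposited log2 table holds log2(CPM + 1) values of 10631 genes and was used in 1 alternative only. The number of other per-sample columns was 0.

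Counts were tested with edgeR 4.0.16 (R 4.3.3): filterByExpr (minimum count 10, minimum total 15), TMM scaling, 1 fit of 12 libraries with 1 coefficient per group (6 residual degrees of freedom), quasi-likelihood F tests, and Benjamini-Hochberg adjustment over 12748 genes with a threshold of 0.05. CPM values are TMM-scaled. There were 8 comparisons. Reads are not molecules, so errors of counting cover counting only. Lengths are unions of GENCODE M21 exons (GRCm38), not the submitters' annotation. The fit was tested on simulated data. Replicates of every group differed by more than sampling noise.

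All members are named; from each other list, the genes past the threshold, or the 4 with the smallest p where more passed; and for each member the 3 genes of highest correlation, without predicted genes. The members and lists were chosen with earlier results of these data known, so shares of calls within the lists are descriptions only. Alternatives were DESeq2 1.42.0, its size factors, other filters, fewer groups, a replicate block, the number series of the library names, the 10-week labels, limma 3.58.1 on the deposited log2 table, and leaving out libraries. One listed gene, and the values that rest on it, are not reported here or drawn.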

Additional observations from a re-analysis of the deposited data

Results flagged for a closer look

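Clec4d was the 1 result in which the effect of genotype differed between the ages by a test of the difference itself. The log2 fold change of knockout against WT cells at 10 weeks minus that at 4 weeks was -1.75 ± 0.286 (edgeR adjusted p = 0.0417). Levels were 11.8 and 17.0 CPM in knockout and 16.4 and 13.6 CPM in WT cells of 10 weeks, and 31.8 and 35.6 CPM in knockout and 12.3 and 9.27 CPM in WT cells of 4 weeks. The test missed the threshold in 10 of 20 alternatives, and its value ran from -2.14 to -1.49 over all 20; single libraries whose omission lost the call include both 4-week libraries of each genotype.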

How the results depend on the processing

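Fcgr1 stayed lower and past the threshold with vitamin D3 in 13 alternatives (log2 change -2.77 to -1.49) and in untreated culture in 19 (-2.35 to -2.09). The number of members called was 0 in each genotype comparison under every alternative that gave a count. With no filter on low counts, 2 members passed with age in WT cells, 2 with age in knockout cells and 3 with vitamin D3. Fitting only the compared groups gave 1 with age in knockout cells. The number series of the library names as a covariate gave 1 with age in WT cells, 2 with age in knockout cells and 2 with vitamin D3. Leaving out single libraries gave 1 to 2 with vitamin D3 (2 without untreated replicate 1 or vitamin D3 replicate 3).

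Replicate numbers did not show that libraries were paired: the correlation of deviations from the group means was 0.12 at 10 weeks, -0.12 at 4 weeks and 0.27 in culture, paired there by number series. With the replicate block, 2 members passed with age in knockout cells, 2 with vitamin D3 and 6 in untreated culture, and 0 in the genotype comparisons. Crossing the 4-week pairs, chosen after seeing the data, gave 0 at 4 weeks, over both ages and in the difference between ages.

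In the settings of this paragraph, directions reversed for small, uncalled values. Fcgr3 at 4 weeks (knockout against WT) was 0.0074 in DESeq2 and 0.0067 with its size factors. With the 2 conflicting 10-week labels exchanged, knockout against WT gave Fcgr1 0.036 and Fcgr3 0.015 at 10 weeks and Fcgr3 0.0040 over both ages. The difference between ages gave Fcgr3 0.021 and Fcer1g -0.024 with that exchange, and age in WT gave Fcgr1 -0.096. In this setting genotype at 10 weeks cannot be told apart from sex or number series. Without the second 10-week pair, Fcer1g was -0.0069 at 10 weeks and -0.048 in the difference between ages, and Fcgr4 -0.11 with age in WT. Leaving out both conflicting libraries, chosen after seeing the data, also gave Fcgr4 -0.11 with age in WT.

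Counting Fcgr2b and Fcgr3 as 1 gene gave, in place of the Fcgr2b value, -0.056 at 10 weeks, -0.041 over both ages, -0.029 for the difference between ages, -0.015 with vitamin D3 and 0.45 in untreated culture; since Fcgr3 holds most of the sum, it mainly follows Fcgr3. The 0.45 in untreated culture is opposite in direction to the called Fcgr2b value of -0.78. No count of calls was made in that setting.

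Leaving out 1 library in turn gave ranges across 0. Knockout against WT ran from -0.15 to 0.67 (Fcgr2b, 10 weeks), -0.29 to 0.11 (Fcgr2b, 4 weeks), -0.12 to 0.30 (Fcgr2b, both ages), -0.041 to 0.035 (Fcgr3, 4 weeks) and -0.19 to 0.072 (Fcgr4, 4 weeks). The difference between ages ran from -0.094 to 0.17 (Fcgr1), -0.079 to 0.75 (Fcgr2b) and -0.031 to 0.048 (Fcer1g). With age, Fcgr1 ran from -0.055 to 0.17 and Fcgr4 from -0.11 to 0.21 in WT, and Fcgr1 from -0.036 to 0.22 in knockout. Fcgr3 with vitamin D3 ran from -0.28 to 0.14, and Fcgr4 in untreated culture from -0.084 to 0.86. With 2 libraries a group, a lone library left in a group is assumed to vary like the other groups. Fcgr1 with vitamin D3 rests on 38 and 65 counts; the other members' counts are larger, so library spread limits them more than depth.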
